A study of Prunus avium with 27 samples.

Results

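Genes whose RNA peaked in December made up 72 of the 28087 gene identifiers beginning with PRUPE, in tables that list 29449 identifiers in all, in dormant and non-dormant flower buds of sweet cherry. A gene was taken when the mean level of its 3 libraries on the highest date was at least 5 TPM (a level corrected for transcript length and depth) and when log2(mean TPM + 1) was at least 1 higher in December than in October and at least 1 lower in January than in December. The genes were thus chosen by their RNA values on the 3 dates, and these RNA levels and changes are given as a description, without a test. Chromatin values had no part in the choice, so changes of the histone mark H3K4me3 were tested.

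The buds came from the cultivar Burlat and were taken from the same branches on 21 October 2014, 5 December 2014 and 27 January 2015, which are 45 and 53 days apart. The labels call the October and December buds dormant and the January buds non-dormant, so dormancy state and date cannot be told apart. Each date has 3 RNA libraries and 2 H3K4me3 libraries (replicates 2 and 3), made from frozen, ground buds, and the labels give 1 sequencing lane for all RNA libraries and 1 for all H3K4me3 libraries. The 6 H3 and 6 input libraries are not analysed here. Whether replicates are separate trees or separate portions of 1 harvest is open in the labels, so errors and p-values reflect only how these samples spread, which may be technical. Buds hold several tissues, and fewer cells of a type and less RNA per cell cannot be told apart in such bulk samples.

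Flower buds of temperate fruit trees pass through winter in a dormant state. In its deep phase an internal block keeps growth stopped, prolonged cold lifts that block, and afterwards low temperature alone holds the buds back. Trimethylation of lysine 4 of histone H3 (H3K4me3) is a chromatin mark that lies at the starts of transcribed genes and is commonly stronger at genes with more RNA. The tables pair no identifier with a gene name, and 0 of them were found in the RefSeq table of 37283 sweet cherry genes. Only identifiers were compared, not sequences, so this cannot show whether the genes themselves are missing from that table. The genes are therefore given by identifier and position without a role, and tissue markers could not be checked. Positions are as the authors' tables give them, in a genome build that the sources used here do not name.

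Every RNA library summed to 1000000 TPM, and 17105 to 18097 identifiers reached 1 TPM. The depth behind the TPM is unknown. Summed over the listed regions, the H3K4me3 libraries had 14216613 to 28126160 recovered reads (the deposited signal divided by its smallest step). The fewest were in January replicate 3 and the most in December replicate 3. Added together, the 72 genes reached 1950.2, 1940.0 and 1948 TPM in the October libraries, 6740.4, 6642 and 5741 TPM in the December libraries and 2082, 1957 and 2132 TPM in the January libraries. Every December sum lay above every sum of the other dates. Without the gene of the highest level the sums were 1354, 1341 and 1339.5 TPM in the October libraries, 5547, 5339 and 4500.0 TPM in the December libraries and 1588, 1509.8 and 1612 TPM in the January libraries.

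Of the 15551 PRUPE genes that reached 5 TPM on some date, 955 were at least 2-fold higher in December than in October on the log2(mean TPM + 1) scale, and 489 were at least 2-fold lower in January than in December. The 72 genes that did both were 7.54% of the first set and 14.7% of the second. Their December mean ran from 5.31 to 1246 TPM with a median of 37.3 TPM. It was under 10 TPM for 14 genes, between 10 and 50 TPM for 26, between 50 and 100 TPM for 16, and 100 TPM or more for 16. Medians over the 72 genes were 6.03 TPM for the October means and 11.4 TPM for the January means. The rise from October had a median of 1.72 and a highest value of 5.21 in log2 units, and the January-minus-December change had a median of -1.43 and a lowest value of -5.70. Most genes lay near the limits: the smaller of the 2 changes was under 1.5 for 48 genes and under 1.1 for 20, whereas it reached 2 for 13 genes and 3 for 2.

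**Figure D1:**
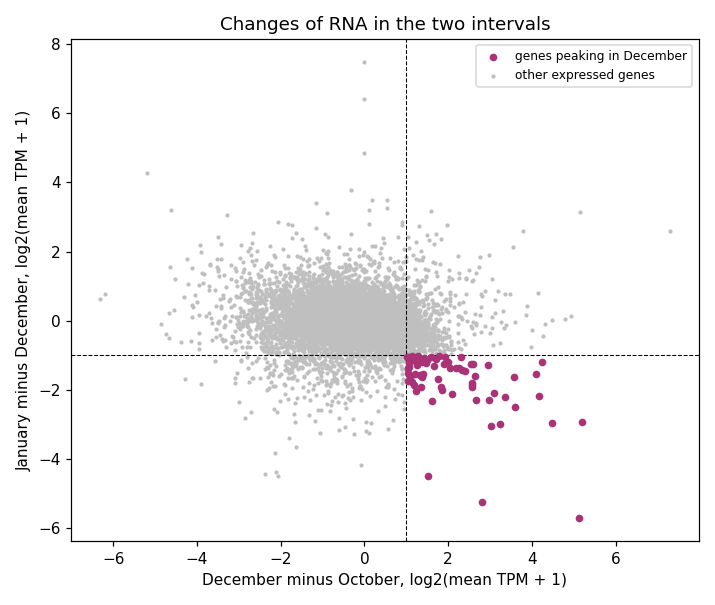
Each point is a gene that reached 5 TPM on some date, with the December minus October difference of log2(mean TPM + 1) on the horizontal axis and the January minus December difference on the vertical axis. The 72 genes peaking in December fill the lower right corner beyond the dashed limits at 1 and -1, most of them close to the limits.

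Just inside the limits stood PRUPE_ppa013777mg (scaffold 8, 20995031 to 20995801), PRUPE_ppa002597mg (scaffold 7, 17144767 to 17146744) and PRUPE_ppa009143mg (scaffold 1, 29369614 to 29370718), with a smaller change of 1.02 each. PRUPE_ppa009143mg had 55.4, 44.9 and 45.5 TPM in October, 127, 130.0 and 102 TPM in December and 64.6, 55.7 and 55.0 TPM in January. Just outside stood PRUPE_ppa027005mg (scaffold 3, 10916106 to 10917864), PRUPE_ppa003333mg (scaffold 6, 1828827 to 1831501) and PRUPE_ppb002215mg (scaffold 7, 7919425 to 7921382), with a smaller change of 0.98 each. PRUPE_ppa027005mg had 34.7, 31.7 and 38.7 TPM in October, 111, 113 and 108 TPM in December and 58.7, 62.3 and 45.1 TPM in January. In both examples all December libraries lay above those of the other dates, on either side of the limit. The lowest level inside the rule was that of PRUPE_ppa011268mg (scaffold 5, 17523362 to 17524290), which averaged 2.00 ± 0.741 TPM in October, 5.31 ± 0.673 TPM in December and 1.73 ± 0.375 TPM in January (SD, n = 3 each). Next came PRUPE_ppa018559mg (scaffold 2, 18432322 to 18433746) and PRUPE_ppa002377mg (scaffold 1, 915495 to 919116), with December means of 5.63 and 5.83 TPM.

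For 67 of the 72 genes all 3 December libraries lay above all 6 libraries of the other dates, a separation that 11.2% of the 15551 genes at 5 TPM or more showed, and 47.2% of the 955 that were at least 2-fold higher in December than in October. The rule used these values, so the count describes the members only. Replicates spread more than over all genes at 5 TPM or more, a set that was not matched to the members in level. The members' median TPM lay below that of the set in the October and January libraries and above it in the December libraries. The median SD of log2(TPM + 1) over the members was 0.184 in October, 0.189 in December and 0.259 in January, beside 0.115, 0.119 and 0.142 over all genes at 5 TPM or more. Among the December libraries, replicate 3 held the lowest level for 44 of the 72 genes (61.1%). Over all genes at 5 TPM or more it was lowest for 29.9%, and replicate 2 was the lowest most often (54.2%).

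**Figure D2:**
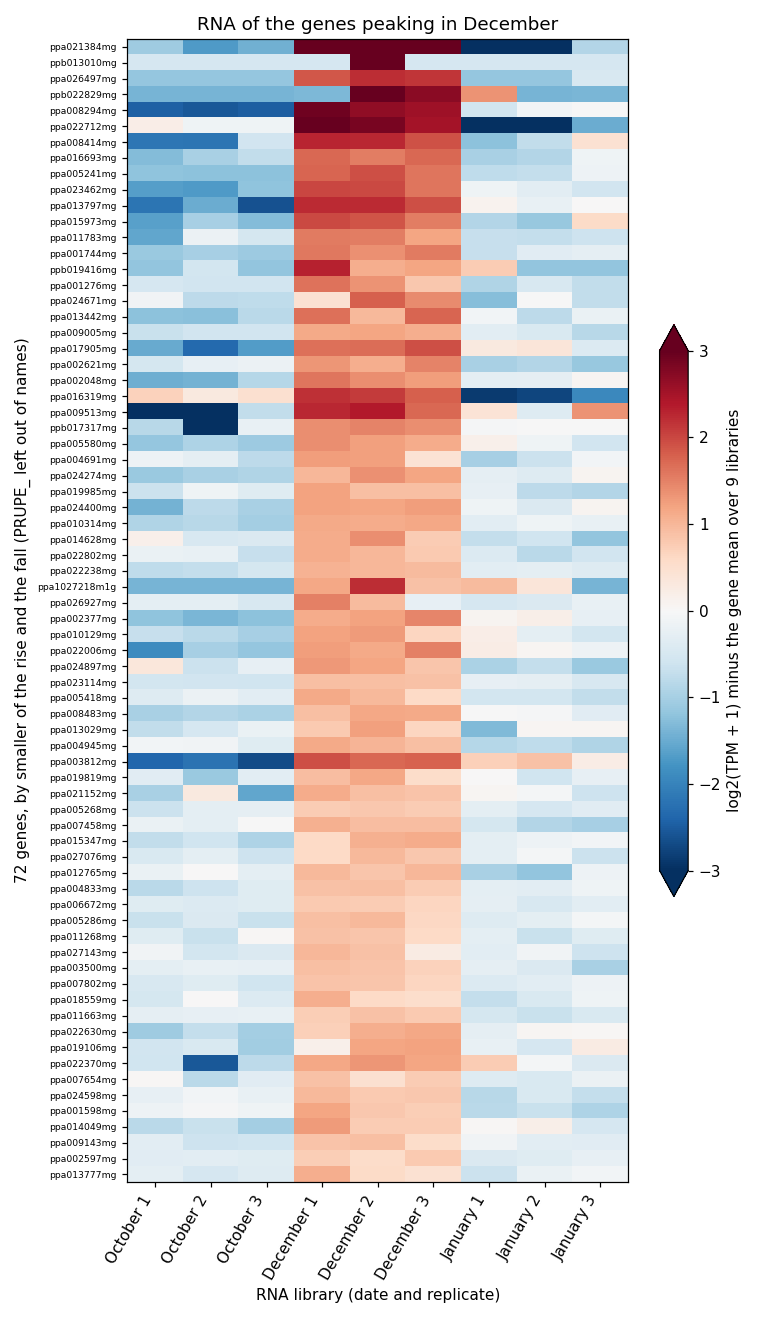
RNA of the 72 genes (rows, ordered by the smaller of the rise and the fall) in the 9 libraries (columns), as log2(TPM + 1) minus the mean of each gene over the 9 libraries, with the colour scale ending at -3 and 3. The December columns stand above the gene mean in nearly every row, and 5 rows hold a December library that does not exceed every library of the other dates.

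The highest level belonged to PRUPE_ppa011663mg (scaffold 8, 13195697 to 13197462), which had 596, 599 and 608 TPM in October, 1193, 1303 and 1241 TPM in December and 494, 447 and 520.0 TPM in January. The libraries of the 3 dates did not overlap, and this gene changed by 1.05 by December and -1.35 by January on the log2(mean TPM + 1) scale, close to the limits of the rule. PRUPE_ppa005241mg (scaffold 8, 510579 to 512207) had 78.8, 77.5 and 78.2 TPM in October, 617, 700.0 and 562 TPM in December and 108, 111 and 166 TPM in January, with changes of 2.99 and -2.28. PRUPE_ppa007458mg (scaffold 2, 24766423 to 24768515) had 195, 182 and 219.6 TPM in October, 467, 420.4 and 421 TPM in December and 155, 119.7 and 111 TPM in January, and its January libraries all lay below its October libraries. PRUPE_ppa026927mg (scaffold 2, 18859671 to 18860523) differed between libraries of one date, with 187, 185 and 162 TPM in October, 650.1, 440.4 and 191 TPM in December and 161, 169 and 194 TPM in January. Its lowest December library lay below its highest January library, and without December replicate 1 the smaller of its changes was 0.82, under the limit.

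The sharpest peak was that of PRUPE_ppa021384mg (scaffold 5, 10107138 to 10107696), which had 3.01, 1.59 and 2.13 TPM in October, 118, 115 and 105 TPM in December and 0, 0 and 3.57 TPM in January, with changes of 5.13 and -5.70 in log2 units. PRUPE_ppa026497mg (scaffold 6, 25929418 to 25929861) was listed at 0 in all October libraries and in January replicates 1 and 2, had 7.09, 9.34 and 8.87 TPM in December and 0.604 TPM in January replicate 3. In both genes every December library lay above every library of the other dates. Between them by the smaller of the changes came a gene whose peak rested on a single library, and after them one whose December libraries differed widely. PRUPE_ppb013010mg (scaffold 4, 18377468 to 18377672) had 21.5 TPM in December replicate 2 and under 0.1 TPM in each of the other 8 libraries, and without that library its smaller change was -0.002. PRUPE_ppb022829mg (scaffold 3, 9325530 to 9327657) had 0.0401, 48.1 and 16.2 TPM in December and 5.74 TPM in January replicate 1, and stayed under 0.1 TPM in the remaining libraries. Its smaller change was 2.94 with all libraries, 1.64 without December replicate 2 and 4.47 without January replicate 1. These 2 genes had the widest spread of the 72 among the December libraries. The other members whose December libraries overlapped those of another date were PRUPE_ppa1027218m1g and PRUPE_ppa019106mg, named after their values were seen.

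January levels mostly came back to within 2-fold of October. On the log2(mean TPM + 1) scale 56 of the 72 genes did so, 14 were at least 2-fold higher in January than in October and 2 at least 2-fold lower. The shares of all genes at 5 TPM or more at this 2-fold limit were not counted, so these counts describe the members only. The January libraries lay above all October libraries for 27 genes, below them for 11, and overlapped them for 34. Over all genes at 5 TPM or more, January lay above October without overlap for 38.1% and below it for 31.2%, so the members' shares, 37.5% and 15.3%, were near or under that background.

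The genes that stayed furthest above their October level were PRUPE_ppa003812mg (scaffold 5, 5482024 to 5484611), PRUPE_ppa009513mg (scaffold 7, 2480885 to 2482027) and PRUPE_ppa008294mg (scaffold 6, 25937090 to 25938833). PRUPE_ppa003812mg had 3.19, 3.70 and 2.43 TPM in October, 83.2, 71.5 and 74.1 TPM in December and 35.2, 39.5 and 24.4 TPM in January. PRUPE_ppa009513mg had 0.663, 0.538 and 9.74 TPM in October, 84.8, 93.0 and 57.9 TPM in December and 22.9, 12.7 and 44.4 TPM in January, and PRUPE_ppa008294mg had 4.77, 4.37 and 4.68 TPM in October, 236, 199 and 183 TPM in December and 20.0, 28.8 and 30.2 TPM in January. In all of these the January libraries lay between the October and the December libraries without overlap, and the January minus October difference was 3.05, 2.57 and 2.29 in that order.

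The genes that ended lowest relative to October were PRUPE_ppa016319mg (scaffold 1, 11693616 to 11694684), PRUPE_ppa022712mg (scaffold 5, 10104606 to 10105143) and PRUPE_ppa024897mg (scaffold 2, 15827685 to 15828480). PRUPE_ppa016319mg had 18.2, 13.6 and 15.7 TPM in October, 52.9, 49.5 and 40.0 TPM in December and 0.624, 0.756 and 2.09 TPM in January. PRUPE_ppa022712mg had 29.9, 23.6 and 23.4 TPM in October, 209.9, 192 and 151 TPM in December and 1.76, 1.31 and 8.55 TPM in January. PRUPE_ppa024897mg had 4.84, 1.95 and 2.88 TPM in October, 10.2, 9.42 and 7.17 TPM in December and 1.38, 1.81 and 1.12 TPM in January. Their January libraries lay below all October libraries, and the January minus October difference was -2.96, -2.45 and -0.79 in that order.

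Members sat on the main scaffolds in numbers from 5 (scaffolds 3 and 4) to 16 (scaffold 1). On scaffold 2 there were 13, which is 18.1% of the members, beside 11.2% of the genes at 5 TPM or more. Their loci were short, with a median of 1644 bp beside 2705 bp for all genes at 5 TPM or more and 2580 bp for the 826 genes that were at least 2-fold higher in December than in October and changed by less than 2-fold afterwards. These differences were not tested.

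Some members were neighbours. With a limit of 20 kb between adjacent starts, 13 members fell into 6 groups, in 5 of which no other PRUPE gene lay between them, and the members of each group lay on the same strand. How often other genes lie this close was not counted. The pair with the highest summed level was PRUPE_ppa022712mg and PRUPE_ppa021384mg on scaffold 5, within 3090 bp. The genes on either side did not share the shape. PRUPE_ppa021197mg averaged 2.05 TPM in October, 1.06 TPM in December and 0.634 TPM in January, and PRUPE_ppa026499mg averaged 5.19 TPM in October, was listed at 0 in December and averaged 0.257 TPM in January. On scaffold 6, PRUPE_ppa026497mg and PRUPE_ppa008294mg lay within 9415 bp, and the first had the lower December level of the 2. The flanking PRUPE_ppa007071mg averaged 40.1 TPM in October, 31.6 TPM in December and 40.8 TPM in January, and PRUPE_ppa018153mg was listed at 0 on all dates.

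On scaffold 1, PRUPE_ppa014049mg (27167536 to 27168395) and PRUPE_ppa005580mg (27169350 to 27171016) lay within 3480 bp. PRUPE_ppa014049mg had 10.5, 11.6 and 8.87 TPM in October, 47.8, 33.3 and 33.0 TPM in December and 19.6, 21.6 and 13.1 TPM in January, and PRUPE_ppa005580mg had 26.4, 31.2 and 28.1 TPM in October, 162, 145 and 133 TPM in December and 67.2, 55.0 and 40.4 TPM in January. Both kept January levels above all their October libraries. On scaffold 8, PRUPE_ppa013777mg and PRUPE_ppa013797mg (20997622 to 20998256) lay within 3225 bp. PRUPE_ppa013797mg had 4.72, 8.42 and 3.28 TPM in October, 124, 122 and 99.5 TPM in December and 27.2, 21.6 and 25.7 TPM in January. PRUPE_ppa013777mg, its neighbour, had 26.1, 22.4 and 24.6 TPM in October, 70.0, 48.8 and 44.6 TPM in December and 20.4, 28.0 and 30.7 TPM in January. The pair shared the December maximum, with PRUPE_ppa013777mg the higher in October and PRUPE_ppa013797mg the higher in December. Both genes flanking this pair, PRUPE_ppa013474mg and PRUPE_ppa008753mg, were also highest in December, at 35.9 and 36.7 TPM, but by less than 2-fold over either other date.

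The remaining groups were a pair on scaffold 1 between 32501703 and 32514835 with 1 other gene between its members, and 3 genes on scaffold 2 between 25231745 and 25244748. The 3 genes on scaffold 2 had December means of 42.4, 57.8 and 20.5 TPM along the scaffold, against January means of 15.9, 21.7 and 9.41 TPM. The sources used here do not state how reads of near-identical copies were divided, and whether such neighbours share reads was not tested.

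**Figure D3:**
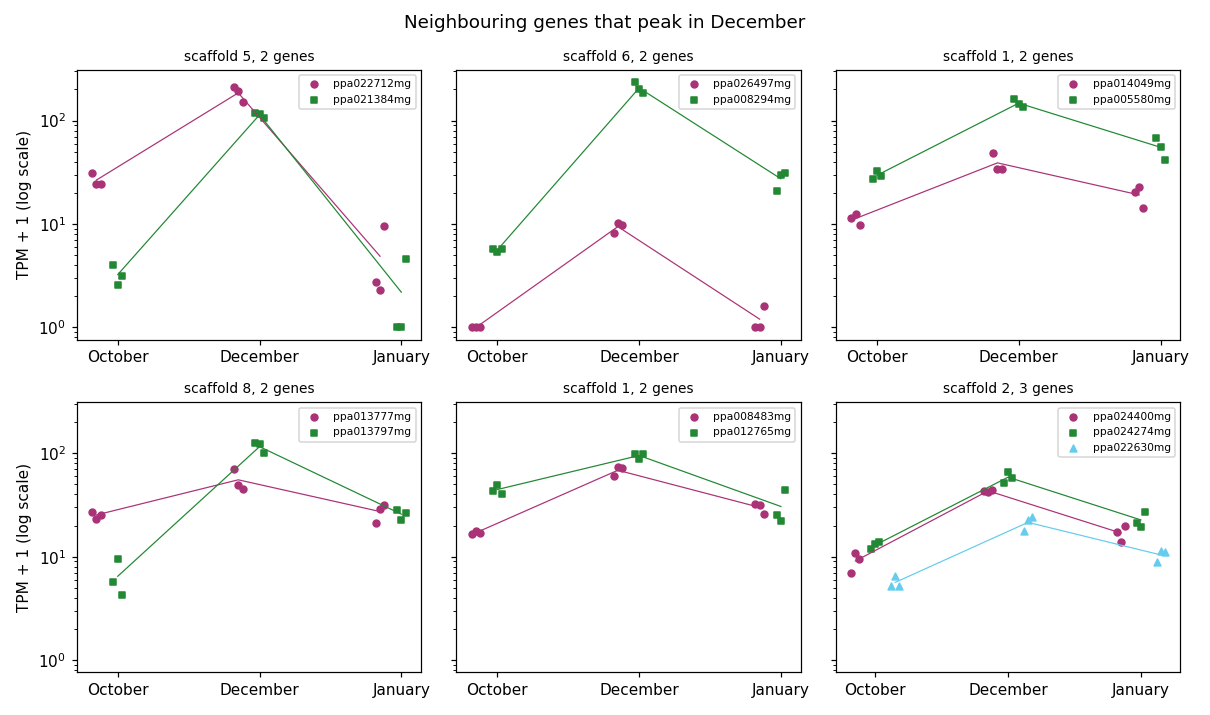
TPM + 1 on a log scale in each library of the 3 dates for the members of the 6 groups of neighbours, with 1 symbol per library and lines through the date means. Every line has its highest point in December, and the pair on scaffold 5 has the steepest lines down to January.

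H3K4me3 was read in the window that the authors' tables use, 500 bp before the gene start to 1500 bp after it. At shorter genes, such as PRUPE_ppa021384mg (558 bp) and PRUPE_ppa022712mg (537 bp), the window runs past the gene end. Of the 72 members 58 had a window of their own, 13 shared a longer region with a neighbouring gene, and for 1 the region could not be assigned. The 58 windows had a median signal of 93.0 over the 6 libraries, beside 178 over the windows of all genes at 5 TPM or more. At 6 windows (10.3%) every library stood at the lowest value of the table, as did 7.84% of the windows of all genes at 5 TPM or more. The signal was high enough to test at 46 of the 58 windows (at least 10 in at least 2 libraries), and none of these passed through the December libraries alone.

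Among the 58 windows of their own, the strongest mark lay at PRUPE_ppa007458mg, PRUPE_ppa005241mg and PRUPE_ppa010129mg (scaffold 9, 898478 to 900679). At PRUPE_ppa007458mg the signal was 601 and 601 in October, 655 and 678 in December and 747 and 673 in January. At PRUPE_ppa005241mg it was 461 and 437 in October, 666 and 678 in December and 612 and 497 in January, and at PRUPE_ppa010129mg 333 and 314 in October, 453 and 455 in December and 590.5 and 531 in January. PRUPE_ppa007458mg and PRUPE_ppa010129mg thus had their highest mean signal in January, and PRUPE_ppa005241mg had it in December. In January the RNA of PRUPE_ppa007458mg and PRUPE_ppa010129mg averaged 128 ± 23.2 and 74.3 ± 20.6 TPM in that order (SD, n = 3 each). Their January against December change of signal did not pass the test (limma adjusted p 0.823 and 0.257). At PRUPE_ppa007458mg January replicate 3 lay below December replicate 3. At the other end, PRUPE_ppa027143mg (scaffold 2, 17105015 to 17107313), PRUPE_ppa013442mg (scaffold 34, 19765 to 20682) and PRUPE_ppb022829mg were at the lowest value in all 6 libraries. PRUPE_ppa027143mg had 20.0, 14.4 and 15.7 TPM in October, 44.4, 40.8 and 25.6 TPM in December and 17.3, 20.2 and 13.7 TPM in January, and PRUPE_ppa013442mg had 4.29, 4.27 and 6.18 TPM in October, 38.0, 23.4 and 40.9 TPM in December and 10.9, 6.20 and 9.90 TPM in January. Their RNA thus peaked with no signal above the lowest value in the window.

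By December the mark had risen since October at 13 of the 46 tested windows (28.3%) and fallen at 0, in limma with Benjamini-Hochberg adjustment over all 15360 regions (adjusted p under 0.05). Over all regions 4.5% rose and 2.55% fell. At an unadjusted p under 0.05 the limma fit had 24 members' windows higher and 2 lower. At an adjusted p under 0.05, edgeR on the recovered reads called 0 lower with the deposited scaling and 3 with TMM factors from those reads. DESeq2 called 4 lower. The deposited signal columns are themselves headed TMM. Shares of all regions were not counted for the unadjusted limit or for edgeR and DESeq2. The median change at the members' windows was 0.24 log2 units above the median of all regions, which itself moved by 0.15, and 34 of the 46 windows lay above that median. With library medians aligned, 17 rose and 3 fell at the members, beside 11.8% and 11.1% of all regions. The count of 13 was 3 without the filter on low signal. It went down or up when a library was left out, in fits that keep a single library on that date. Without either January library some of the windows called were lower in December. All changes of H3K4me3 below are log2 changes relative to the median of all regions. The SE and adjusted p beside each come from the test of the change before that median was subtracted.

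The largest rises were at PRUPE_ppa001276mg (scaffold 10, 557556 to 560526), PRUPE_ppa008414mg (scaffold 4, 8581869 to 8583642) and PRUPE_ppa008294mg. At PRUPE_ppa008414mg the signal was 21.8 and 30.1 in October, 138 and 114 in December and 176 and 171 in January, a rise by December of 2.10 (SE 0.21) with a limma adjusted p of 1.56e-05. At PRUPE_ppa008294mg it was 32.8 and 45.2 in October, 162 and 130.3 in December and 203 and 187 in January, a rise of 1.74 (SE 0.20) with a limma adjusted p of 4.68e-05. Both windows carried their highest signal in January, when the RNA of PRUPE_ppa008414mg averaged 5.59 ± 4.17 TPM, against 36.2 ± 5.34 TPM in December (SD, n = 3 each), and that of PRUPE_ppa008294mg 26.4 ± 5.52 TPM, against 206 ± 26.9 TPM in December. The January against December change passed the test at neither window. At PRUPE_ppa001276mg the signal was 6.59 and 13.1 in October, 74.5 and 71.3 in December and 39.8 and 21.1 in January, a rise of 2.69 (SE 0.42) by December (limma adjusted p 0.00108), and its January libraries lay between those of the other dates. The call at PRUPE_ppa001276mg was lost without the filter on low signal (limma adjusted p 0.0986).

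PRUPE_ppa003812mg, PRUPE_ppa005286mg (scaffold 7, 19347887 to 19351089) and PRUPE_ppa024671mg (scaffold 1, 981848 to 982375) followed, with rises of 1.34 (SE 0.15), 1.26 (SE 0.33) and 0.80 (SE 0.18) by December. At PRUPE_ppa003812mg the signal was 111 and 90.5 in October, 279 and 285 in December and 454 and 369 in January (limma adjusted p 3.21e-05 for December against October). The RNA of PRUPE_ppa005286mg returned to 7.11 ± 0.991 TPM in January, against 16.2 ± 2.17 TPM in December (SD, n = 3 each), while its signal was 12.6 and 29.6 in October, 55.7 and 50.9 in December and 85.0 and 89.4 in January. Without October replicate 2 the call at PRUPE_ppa005286mg was lost (limma adjusted p 0.272, with a log2 change of 0.83 in place of 1.41 before the median is subtracted), as was that at PRUPE_ppa024671mg (limma adjusted p 0.0615). Both were lost without the filter (0.205 and 0.0684). The calls at PRUPE_ppa008414mg, PRUPE_ppa008294mg and PRUPE_ppa003812mg held under every alternative run.

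Between December and January the mark fell at 4 of the 46 windows (8.7%) and rose at 0, beside 1.3% and 0.436% of all regions. At an unadjusted p under 0.05 the limma fit had 12 windows lower and 5 higher. At an adjusted p under 0.05, edgeR called 0 higher with the deposited scaling and 2 with TMM, and DESeq2 called 8 higher. Here too the shares of all regions were not counted. The members' median change was -0.11 relative to all regions, whose median moved by -0.11. With library medians aligned 5 fell and 3 rose, beside 2.94% and 2.93% of all regions. The 4 falls were at PRUPE_ppa016319mg, PRUPE_ppa021384mg, PRUPE_ppa024598mg (scaffold 7, 20917860 to 20920029) and PRUPE_ppa022712mg. PRUPE_ppa016319mg lost the most: its signal was 105 and 113 in October, 135 and 117 in December and 16.4 and 12.6 in January, a change of -2.93 (SE 0.24) with a limma adjusted p of 4.33e-06. From October to December its mark changed by 0.06 (SE 0.24), which did not pass the test (limma adjusted p 0.572), while its December RNA lay above all October libraries.

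At PRUPE_ppa021384mg the signal was 50.5 and 56.3 in October, 79.8 and 66.4 in December and 33.5 and 35.4 in January, and at its neighbour PRUPE_ppa022712mg it was 143 and 138 in October, 147 and 150.2 in December and 96.4 and 77.2 in January. The December to January changes were -0.95 (SE 0.25) at PRUPE_ppa021384mg and -0.67 (SE 0.17) at PRUPE_ppa022712mg, with limma adjusted p of 0.041 and 0.0277. PRUPE_ppa024598mg had a signal of 146 and 159.6 in October, 153 and 179 in December and 99.96 and 79.1 in January, a change of -0.78 (SE 0.17) (limma adjusted p 0.012). The 3 calls were lost without December replicate 3 (limma adjusted p 0.0944, 0.179 and 0.131 in the order PRUPE_ppa021384mg, PRUPE_ppa022712mg, PRUPE_ppa024598mg) and without January replicate 3 (0.124, 0.0863 and 0.0757), and those at the neighbours also without December replicate 2 (0.217 and 0.064). The count of 4 was 2 without December replicate 2, 1 without December replicate 3, 18 (17 lower) without January replicate 2 and 1 without January replicate 3. The call at PRUPE_ppa016319mg held in each of these fits, and its limma adjusted p was 0.0926 without the filter on low signal.

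**Figure D4:**
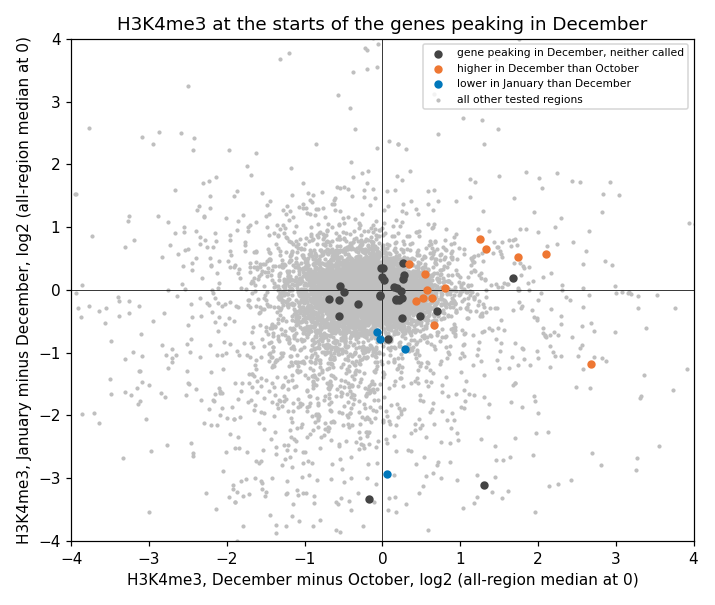
H3K4me3 change, December minus October (horizontal) and January minus December (vertical), at the 46 tested windows of the members and at all other tested regions, in log2 units with the median of all regions at 0. Coloured points mark the 13 windows that rose by December, spread to the right, and the 4 that fell by January, low and close to 0 on the horizontal axis, while 2 windows below -3 on the vertical axis were not called. 61 of the 15360 regions, none of them a member's, lie outside the plotted range of 4 log2 units.

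Measured against the mean of October and January, 3 of the 46 windows (6.52%) were higher in December and 0 lower, beside 0.143% and 0.163% of all regions. At an unadjusted p under 0.05 the limma fit had 21 windows higher and 0 lower. The share of all regions at that limit was not counted, and their median change was itself 0.14. At an adjusted p under 0.05 neither edgeR nor DESeq2 called a window lower. The 3 were PRUPE_ppa001276mg at 1.93 (SE 0.36), PRUPE_ppa016319mg at 1.49 (SE 0.21) and PRUPE_ppa008414mg at 0.76 (SE 0.18), with limma adjusted p of 0.0213, 0.00778 and 0.0482 in that order. At PRUPE_ppa016319mg and PRUPE_ppa008414mg 1 date stood low, January at the first and October at the second. PRUPE_ppa001276mg and PRUPE_ppa016319mg had both December libraries above all libraries of the other dates, and PRUPE_ppa008414mg did not. The calls at PRUPE_ppa001276mg and PRUPE_ppa008414mg were lost without December replicate 2 (limma adjusted p 0.0504 and 0.284) and without January replicate 3 (0.0799 and 0.1). With library medians aligned 9 windows were higher and 0 lower, beside 1.64% and 2.57% of all regions. The count also went down or up when a library was left out, in fits that keep a single library on that date. Without the filter on low signal it was 0, with limma adjusted p of 0.408, 0.166 and 0.364 in the order PRUPE_ppa001276mg, PRUPE_ppa016319mg, PRUPE_ppa008414mg. The calls at PRUPE_ppa001276mg and PRUPE_ppa008414mg were also lost with edgeR on the deposited scaling (edgeR adjusted p 0.0736 and 0.0675).

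Comparing January with October, the mark was higher in January at 15 of the 46 windows (32.6%) and lower at 7 (15.2%), beside 5.68% and 9.49% of all regions. The 15 included PRUPE_ppa008414mg at 2.67 (SE 0.21), PRUPE_ppa008294mg at 2.26 (SE 0.20), PRUPE_ppa005286mg at 2.06 (SE 0.33) and PRUPE_ppa003812mg at 1.97 (SE 0.15), with limma adjusted p of 6.57e-07, 1.51e-06, 0.000424 and 3.73e-07 in that order. The 7 were led by PRUPE_ppa016319mg at -2.88 (SE 0.24) (limma adjusted p 1.33e-06), followed by PRUPE_ppa001598mg (scaffold 2, 25433594 to 25439529) at -0.98 (SE 0.27) and PRUPE_ppa022238mg (scaffold 5, 708123 to 710523) at -0.85 (SE 0.17). The call at PRUPE_ppa001598mg was lost without October replicate 2, October replicate 3 or January replicate 3 (limma adjusted p 0.164, 0.0578 and 0.0788). At PRUPE_ppa022238mg the signal was 149 and 150.2 in October, 97.7 and 108 in December and 87.0 and 83.7 in January. The December against October change of -0.69 (SE 0.17), or -0.54 before the median was subtracted, did not pass the test (limma adjusted p 0.0612). With library medians aligned the change was -0.68 and passed (limma adjusted p 0.00351). The RNA of PRUPE_ppa022238mg averaged 13.0 ± 0.479 TPM in December, against 3.43 ± 0.396 TPM in October (SD, n = 3 each). PRUPE_ppa016319mg and PRUPE_ppa022712mg, with RNA at least 2-fold lower in January than in October, were both among the 7. The change at PRUPE_ppa022712mg was -0.74 (SE 0.17), with a limma adjusted p of 0.0101, which was 0.0881 without October replicate 2 and 0.0531 without October replicate 3. PRUPE_ppa003812mg, PRUPE_ppa009513mg and PRUPE_ppa008294mg, which stayed furthest above their October RNA, were all among the 15. The call at PRUPE_ppa009513mg, with a signal of 3.11 and 19.1 in October, 30.7 and 32.1 in December and 22.2 and 49.6 in January, was lost with library medians aligned (limma adjusted p 0.0565) and without October replicate 2, January replicate 2 or January replicate 3 (0.399, 0.0748 and 0.266). With library medians aligned, 19 were higher and 10 lower, beside 18.8% and 17.4% of all regions. The count of 22 was 12 without either October library and 10 without the filter on low signal.

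**Figure D5:**
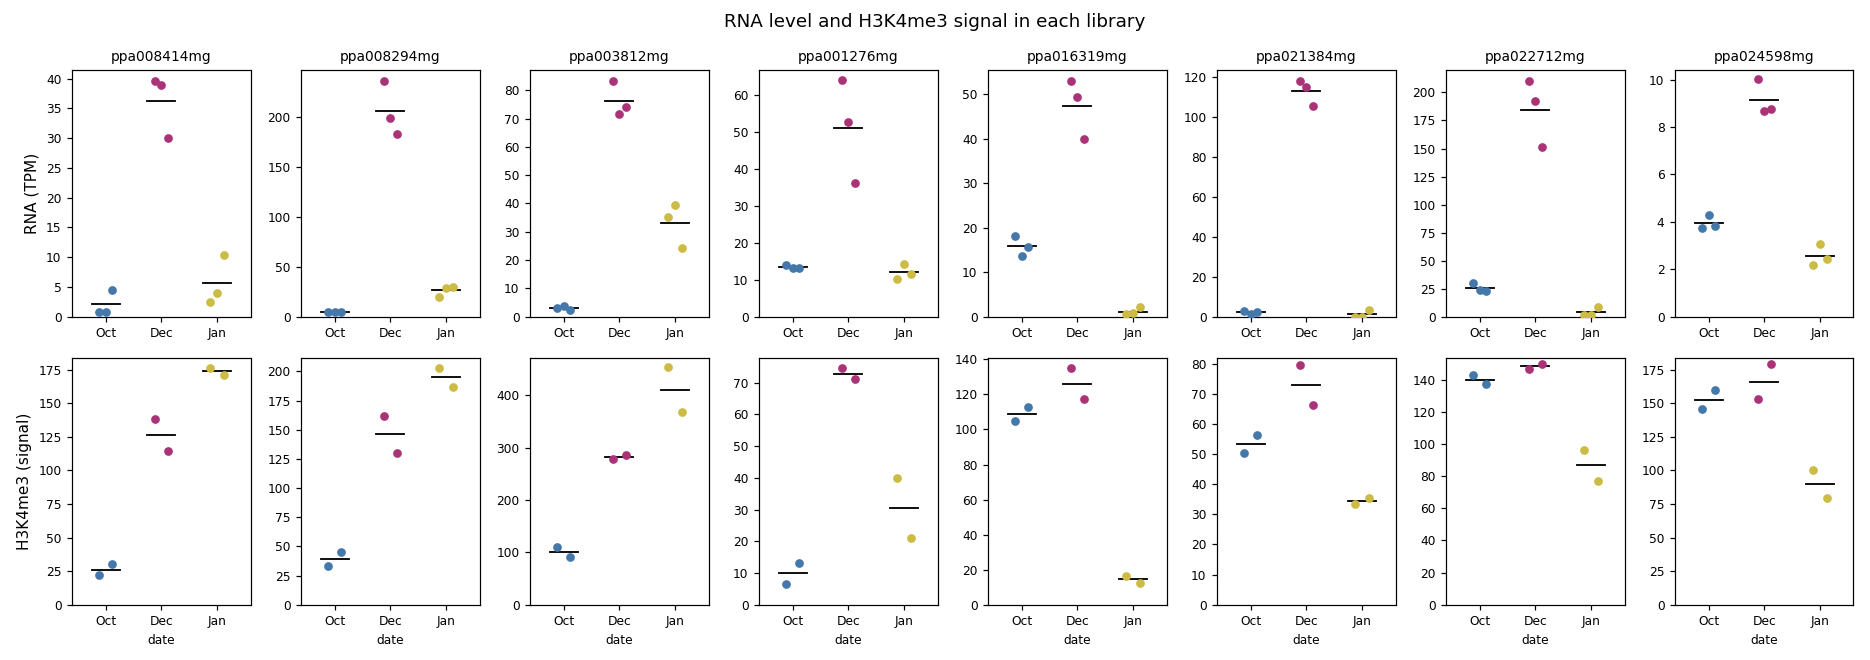
RNA level in TPM (top, 3 libraries per date) and H3K4me3 signal (bottom, 2 libraries per date) for 8 members, with a point per library and a bar at the date mean. In the 3 leftmost columns the signal is highest in January, when RNA lies below its December level, and in the 4 rightmost it is lowest in January.

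The 826 genes raised by December and then held had 625 tested windows, at which the mark was higher in December than in October for 31% and lower for 0 (limma, with 2 lower at an unadjusted p under 0.05). In January it was higher than in December at 1.12% of them and lower at 0 (50 at an unadjusted p under 0.05), and higher than in October at 33% and lower at 0.48%. The members' shares in the same order were 28.3% and 0, 0 and 8.7%, and 32.6% and 15.2%. Both sets come from the same libraries, and the differences between these shares were not tested.

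Regions shared with a neighbouring gene could be tested for 11 of the 13 members concerned. Both PRUPE_ppa014049mg and PRUPE_ppa005580mg lie in 1 region whose signal was 356 and 343 in October, 651 and 741 in December and 688 and 574 in January, a rise by December of 0.84 (SE 0.13) (limma adjusted p 0.000339). The region that holds the start of PRUPE_ppa011663mg, the member with the most RNA, had a signal of 377 and 377 in October, 508 and 505 in December and 622 and 508 in January, and it was higher in January than in October by 0.53 (SE 0.13) (limma adjusted p 0.00498) while the RNA was lower. A shared region cannot be divided between its genes.

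Which genes met the rule depended in part on single RNA libraries. With 1 of the 9 libraries left out, 71 to 83 genes met it, and 51 of the 72 members did so every time. The 21 others dropped out at least once, 12 of them at least 2 times. With the medians of expressed genes aligned between libraries, all 72 met it among 78.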

How the data were processed

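The tables give RNA as TPM per gene in 9 libraries and H3K4me3 as a normalised signal per region in 6 libraries, both as deposited by the authors. Per the submitters' processing notes, TopHat and Picard were used for RNA and FastQC, Trimmomatic, Bowtie2, Picard and DiffBind for chromatin (no versions given). The sources used here name neither the genome build nor the tool behind the TPM. Every deposited signal was a whole multiple of a step of its library (100% of values within 0.01). Signals divided by that step served as recovered reads in the count tests. Between 25.9% and 32.8% of all regions stood at exactly the step in a library. Whether the step is a single read or a floor was not tested. The sources used here do not say whether input was subtracted.

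Regions spanning 500 bp before to 1500 bp after exactly 1 gene start were joined to that gene. Regions reaching a signal of 10 in 2 or more libraries were fitted with limma 3.58.1 (R 4.3.3, intensity trend) on log2(signal + 1), with all dates in one fit and Benjamini-Hochberg adjustment over all 15360 regions. Alternatives used edgeR 4.0.16 and DESeq2 1.42.0 on recovered reads, other pseudocounts, filters and scalings, a replicate block and leaving out each library. The fit was tested on simulated data. The members and lists were chosen with earlier results of these data known. Genes named are the sharpest and highest members, those beside the limits, neighbours, those with the largest called H3K4me3 changes, the strongest and weakest marks, and the extremes of January against October. Gene lists by function and marker checks were not used because no identifier could be paired with a name.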

Additional observations from a re-analysis of the deposited data

How the results depend on the processing

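The rule for membership found 41 genes with a pseudocount of 5, 24 with both changes at least 1.5 and 110 over all identifiers, in place of 72, and 71 to 83 with 1 library left out. The other alternatives for the rule gave 58 to 93 genes. The smaller change of PRUPE_ppb013010mg, 3.03 with all libraries, ran between -0.00205 (without December replicate 2, its only library above 0.1 TPM) and 3.55 with 1 library left out. For December against the mean of October and January, 3 windows were called, and 5 with a pseudocount of 10, 0 without the filter, 9 with library medians aligned, 7 with the replicate block, 1 with edgeR on the deposited scaling, 7 with edgeR and TMM, 18 with DESeq2 and 5 with any region over the gene start. For December against October the 13, all higher, became 3 without the filter. They became 20 with medians aligned (17 higher, 3 lower) and 23 with DESeq2 (19 higher, 4 lower). For January against December the 4, all lower, became 0 without the filter and 8 with medians aligned (5 lower, 3 higher). They became 8 with edgeR and TMM (6 lower, 2 higher) and 20 with DESeq2 (12 lower, 8 higher). Shares of all regions were not counted for edgeR or DESeq2 in any contrast. Counts with 1 library left out, given below, take both directions together. For January against October the 22 became 10 without the filter. Without the filter, limma gave 2191 and 1985 regions of all at an unadjusted p under 0.05 in the December against both and the January against December contrasts. For December against October and January against October these were 4188 and 4472 regions. They were not counted as shares of all unfiltered regions. Leaving out 1 library gave 1 to 23 windows for the first contrast, 6 to 26 for December against October, 1 to 18 for January against December and 12 to 26 for January against October. The cause was not tested. With the replicate block the 4 counts were 7, 14, 5 and 22. Replicate numbers 2 and 3 deviated together with correlations of 0.529, -0.0683 and -0.102 between dates, and since these were not all over 0.1 the numbers were not taken to pair the samples. Of 26 named calls at 14 genes, 13 were kept whichever library was left out and 9 under every alternative. With 2 libraries per date, weak changes could not be told from the spread between libraries.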
